A study of Mus musculus with 6 samples.

Results

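The 50 mouse genes described here encode the DNA replication machinery, from the factors that license replication origins to the chaperones that place histones on new DNA. They were taken from a list of names that was chosen with earlier results of these data known. Matched by Entrez identifier to RefSeq symbols, they make up 50 of the 36528 genes listed in each library. All 50 passed the filter on low counts and are among the 15132 genes tested. Polyadenylated RNA came from skin cells sorted by flow cytometry as CD49f-positive, CD34-positive and GFP-negative, a gate for hair follicle stem cells of the bulge. The group called DT came from Lgr5-DTReGFP mice given DT, and the saline group from Lgr5-DTReGFP mice given NaCl, with 3 libraries each. Both groups therefore carry the diphtheria toxin (DT) receptor fused to eGFP at Lgr5, a gene of cycling stem cells, and DT kills cells that make the receptor. The labels list no DT group without the receptor, and the dose, the time to collection, age, sex and hair cycle stage are not given in the labels. Nothing in the labels ties the libraries to separate animals, and the p-values rest on the spread among libraries, which could be technical alone. The comparison asks how replication genes of GFP-negative stem cells respond when DT is aimed at cells that express Lgr5.

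Replication starts where the origin recognition complex, Cdc6 and Cdt1 load the Mcm2 to Mcm7 ring on DNA in G1, a step called licensing. Kinases and firing factors then join Cdc45 and the GINS complex to that ring to form the active helicase, called CMG. Polymerases, the sliding clamp and its loader copy both strands, nucleases and a ligase join the Okazaki fragments, and histone chaperones rebuild chromatin behind the fork. Bulge stem cells rest for most of the hair cycle, and many of these genes are transcribed mainly in cells that enter S phase, through E2F transcription factors.

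Of the 50 genes 44 rose in DT, 0 fell and 6 did not pass (edgeR quasi-likelihood test, Benjamini-Hochberg adjusted p under 0.05 over all genes tested). Among all genes tested 17.2% rose and 11.9% fell. The median log2 fold change (DT over saline) of the members was 1.36, a 2.56-fold higher level, against -0.01 for all genes tested. The rise exceeded 2-fold for 36 members, 4-fold for 13 and 8-fold for 6, which were Dtl, Mcm10, Asf1b, Orc1, Clspn and Dna2. The 6 that did not pass were Rfc1, Pold1, Gins4, Mcm8, Chaf1a and Gins3. The RNA is a bulk measurement, so more cells in S phase and more RNA per cell cannot be told apart.

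Promoter sequences of 7 members are shown because the members differ in both their change and the letters before their start. They cover 4 genes that rose with an E2F-like match (Orc1, Mcm5, Mcm6, Dtl), 1 that rose without (Mcm10), 1 that did not pass with a match (Gins3) and 1 that did not pass without (Rfc1). Each is the run of 200 bases that ends just before an annotated start of the gene, 5′ to 3′ on its coding strand, from RefSeq (GRCm38.p6). For Orc1 and Rfc1 that start is internal. It lies well inside the span of the gene, which begins at 108575705 for Orc1 (plus strand) and at 65338617 for Rfc1 (minus strand). Capitals mark matches to TTTCCCGC, TTTGGCGC, TTTCGCGC or TTTGCCGC on either strand.
Orc1, chr4:108579254-108579453, plus strand: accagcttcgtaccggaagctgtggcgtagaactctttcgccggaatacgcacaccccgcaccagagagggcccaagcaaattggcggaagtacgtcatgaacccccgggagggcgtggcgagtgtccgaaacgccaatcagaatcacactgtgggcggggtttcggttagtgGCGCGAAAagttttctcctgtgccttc
Mcm5, chr8:75109309-75109508, plus strand: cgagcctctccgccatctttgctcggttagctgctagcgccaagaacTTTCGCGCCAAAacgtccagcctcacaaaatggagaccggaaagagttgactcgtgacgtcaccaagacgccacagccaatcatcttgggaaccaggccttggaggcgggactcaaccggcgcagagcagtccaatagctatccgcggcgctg
Mcm6, chr1:128359706-128359905, minus strand: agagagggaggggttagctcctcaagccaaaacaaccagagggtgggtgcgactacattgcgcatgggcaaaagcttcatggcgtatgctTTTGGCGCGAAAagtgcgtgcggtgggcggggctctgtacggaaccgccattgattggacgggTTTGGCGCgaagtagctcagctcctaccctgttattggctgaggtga
Dtl, chr1:191575545-191575744, minus strand: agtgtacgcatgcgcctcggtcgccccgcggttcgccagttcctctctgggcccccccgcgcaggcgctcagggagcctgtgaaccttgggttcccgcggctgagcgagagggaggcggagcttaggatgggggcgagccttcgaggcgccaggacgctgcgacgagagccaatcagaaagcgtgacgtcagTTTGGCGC
Gins3, chr8:95633359-95633558, plus strand: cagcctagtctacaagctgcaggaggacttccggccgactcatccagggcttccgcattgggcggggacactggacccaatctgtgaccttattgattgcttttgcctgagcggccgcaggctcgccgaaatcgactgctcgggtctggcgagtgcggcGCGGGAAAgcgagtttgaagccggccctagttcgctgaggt
Mcm10, chr2:5012792-5012991, minus strand: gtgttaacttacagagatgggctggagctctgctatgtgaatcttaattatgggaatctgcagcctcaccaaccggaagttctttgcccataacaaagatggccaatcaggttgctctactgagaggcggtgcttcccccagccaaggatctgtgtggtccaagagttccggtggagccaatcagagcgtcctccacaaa
Rfc1, chr5:65335640-65335839, minus strand: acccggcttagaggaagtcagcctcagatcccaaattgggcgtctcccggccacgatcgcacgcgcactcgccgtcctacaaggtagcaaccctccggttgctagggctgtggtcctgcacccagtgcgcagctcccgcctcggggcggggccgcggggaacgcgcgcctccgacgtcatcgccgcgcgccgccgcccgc

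The Orc1 window had 1 match on the opposite strand, whose first base lies at position -27 from the internal start named above. That of Dtl had 1 at -8 from its start. In the Mcm5 window 2 matches on opposite strands, at -153 and -149, overlapped in 1 run of capitals. The Mcm6 window held 3 matches, at -110, -106 and -47, of which the first 2 overlapped, and the Gins3 window held 1 at -41. RefSeq windows of 300 bases (250 before the start and 50 from it) were found for 41 members, and 17 of them (41.5%) held a match. The share was 2.60% of the 27025 genes with a window, 4.45% of the 11202 tested genes with one and 6.68% of the 1946 of these that rose, members included. Median GC content was 61.8% in the members' windows, 60.0% in those of tested genes and 52.7% in all windows, so base composition differed too. Among members, 14 of the 36 that rose (38.9%) and 3 of the 5 that did not pass (60.0%) held a match, so matches occurred on both sides of the threshold. The 3 were Gins3, Pold1 and Mcm8. The letters TTTGAA of the CHR motif, known from mitotic promoters, were found in 8 of 41 member genes (19.5%), 9 of 13 mitosis genes (69.2%), 14.7% of tested genes, 19.2% of tested genes that rose and 20.2% of all genes with a window. The motifs were searched separately and matches may overlap. A match cut by the window edge was not counted, and the Mcm10 window ends in all but the last letter of TTTGGCGC. These matches describe the letters and say nothing of whether a factor bound there.

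**Figure D1:**
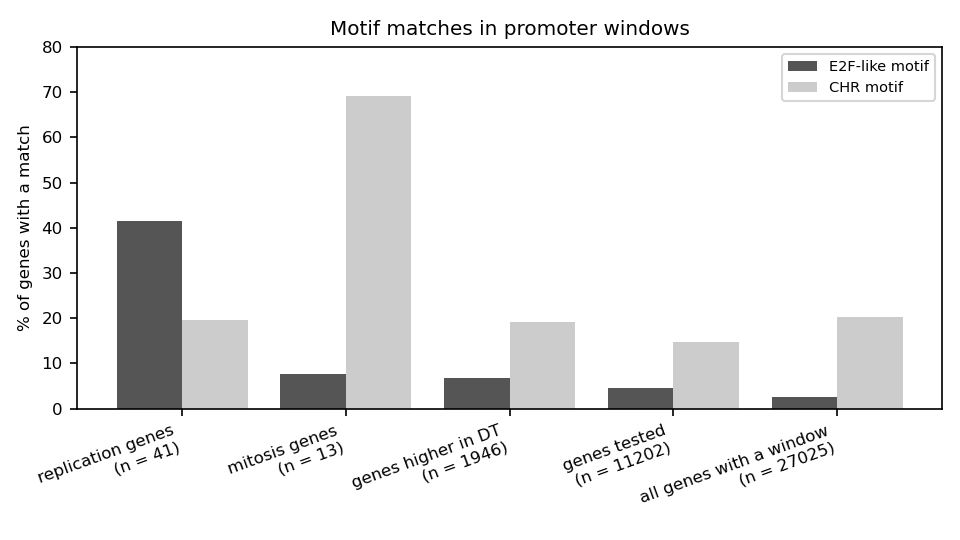
Share of genes (%, vertical axis) whose 300-base promoter window held an E2F-like motif (dark bars) or the CHR motif (light bars), for each gene set on the horizontal axis with its number of genes. The E2F-like share was 41.5% among the replication genes, against 7.69% among mitosis genes and 2.60% among all genes with a window.

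The libraries held 15300755 to 25558859 reads in genes, with 17405 to 20994 genes detected. Lgr5 averaged 7.11 ± 0.143 CPM in DT and 24.0 ± 7.20 CPM in saline (SD, n = 3 each; log2 fold change -1.76, edgeR adjusted p = 0.000864), and the bulge keratin Krt15, which did not pass, averaged 33362 ± 9506 CPM in DT and 34813 ± 6583 CPM in saline. Of the 7 bulge markers 3 fell, namely Lhx2 (log2 fold change -1.09, adjusted p = 0.00696), Nfatc1 (-0.69, adjusted p = 0.0165) and Sox9 (-0.71, adjusted p = 0.0342), and 0 rose, with a median log2 fold change of -0.31. Over all genes, the first principal component (67.0% of variance) split the libraries by treatment, and on the second (14.2%) saline library 1 stood apart. Of 13 immune markers 12 were tested (all but Lyz2), of which 7 fell and Itgam rose. Beside these bulge and immune counts, 11.9% of all genes tested fell and 17.2% rose. The 13 immune markers summed to 135 to 170 CPM in DT and 214 to 306 CPM in saline. The 8 fibroblast markers summed to 9.53 to 16.9 CPM in DT and 23.7 to 41.7 CPM in saline, with Lum and Twist2 at 0 in every library. The 6 melanocyte markers summed to 64.5 to 83.6 CPM in DT and 99.6 to 142 CPM in saline, and the 4 endothelial markers to 7.64 to 10.8 CPM in DT and 3.01 to 21.8 CPM in saline. Cd74 (98.0 CPM in DT and 152 CPM in saline) carried most of the immune sum. Likewise Mitf (66.9 CPM in DT and 103 CPM in saline) carried most of the melanocyte sum. Col1a2 (12.3 CPM in DT and 28.8 CPM in saline) carried most of the fibroblast sum. The summed level of the 50 replication genes was 2815 to 4753 CPM in DT and 1509 to 1554 CPM in saline. The part of these other cells in the results was not tested.

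Levels below are CPM (read counts scaled to library size after TMM), listed for libraries 1, 2 and 3 of each group in that order. The numbers name libraries only and pair none of them. All 3 DT libraries lay above all 3 saline libraries for 45 of the 50 members, where 25.4% of all genes tested did so. The groups overlapped for Gins3, Pola1, Rfc1, Chaf1a and Mcm8. DT library 1 was the lowest DT library for 49 members, all but Gins4, and DT library 2 the highest for 46, all but Mcm10, Dbf4, Clspn and Chaf1a. Relative to the saline mean, the member median (log2) was 0.97, 1.73 and 1.34 in DT libraries 1, 2 and 3 and between -0.02 and 0.06 in the saline libraries. DT library 2 also had the fewest reads, 15300755, and the part of depth in this order was not tested. The same order was not counted over all genes tested.

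**Figure D2:**
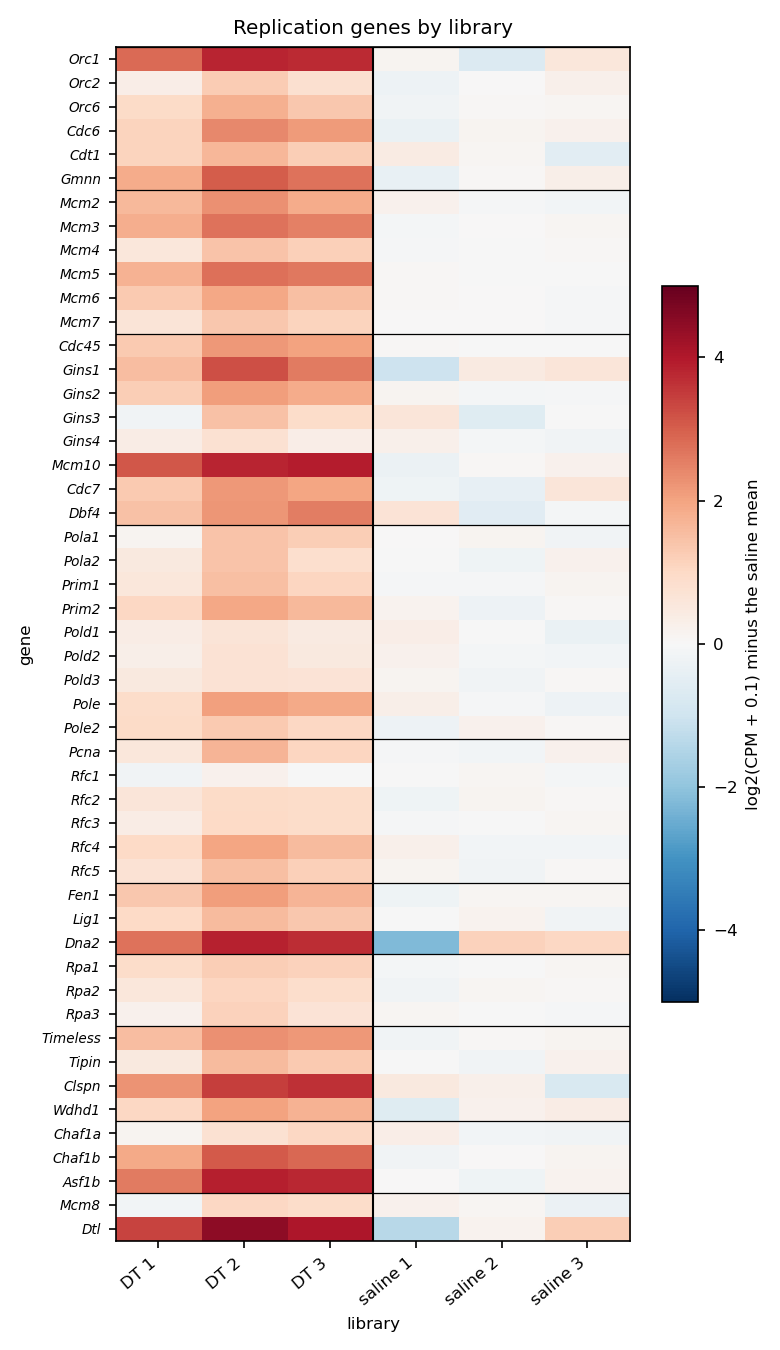
Level of each of the 50 genes (rows, grouped by role) in each library (columns, DT left of the line and saline right of it), as log2(CPM + 0.1) minus the saline mean, on a colour scale. DT library 1 is the palest DT column in nearly every row, and the Rfc1 row stays near 0 throughout.

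The licensing factors rose in 6 of 6 cases, with a median log2 fold change of 1.69. Orc1 (Entrez 18392, chromosome 4 from 108575705 to 108616030 in GRCm38), the ATPase of the origin recognition complex that the cell makes and degrades with the cycle, had 10.7, 20.8 and 19.6 CPM in DT and 1.53, 0.833 and 2.13 CPM in saline (log2 fold change 3.50, SE 0.39, adjusted p = 0.000258). Every DT library was far above every saline library, and the window before its internal start, shown above, held a match. Orc2, a core subunit of that complex, had 30.1, 57.3 and 41.2 CPM in DT and 20.1, 24.1 and 28.1 CPM in saline (log2 fold change 0.83, SE 0.24, adjusted p = 0.0265). Its groups did not overlap, but DT library 1 came close to saline library 3, and the call was lost without DT library 2 or 3 or saline library 1 or 2 (adjusted p up to 0.134). Orc2 shares 1150 exon bases with Nif3l1 on the opposite strand, and Nif3l1 itself rose, at 84.1 CPM in DT and 56.4 CPM in saline (log2 fold change 0.58, adjusted p = 0.0193). Both of its levels were above those of Orc2, the strand setting of the counting is unknown here, and the part of shared reads in the Orc2 rise was not tested. Orc6 averaged 135 ± 39.3 CPM in DT and 51.4 ± 5.06 CPM in saline (log2 fold change 1.40, adjusted p = 0.00111). It shares 171 exon bases with Vps35 on the opposite strand, which also rose, at 559 CPM in DT and 369 CPM in saline (log2 fold change 0.60, adjusted p = 0.011). The part of shared reads was not tested there either. The remaining subunits, outside the 50 genes, had smaller values: Orc4 rose (log2 fold change 0.70, adjusted p = 0.0175), and Orc3 (0.35, adjusted p = 0.105) and Orc5 (-0.01, adjusted p = 0.978) did not pass.

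Cdc6 and Cdt1, which load the Mcm ring, averaged 23.0 ± 9.33 CPM in DT and 5.82 ± 1.11 CPM in saline for Cdc6 and 18.5 ± 3.87 CPM in DT and 7.42 ± 2.31 CPM in saline for Cdt1 (SD, n = 3 each). Their log2 fold changes were 1.98 (adjusted p = 0.00206) and 1.32 (adjusted p = 0.00662). Gmnn encodes geminin, which binds Cdt1 and blocks repeat licensing, and it averaged 46.7 ± 17.9 CPM in DT and 7.68 ± 1.71 CPM in saline (log2 fold change 2.60, adjusted p = 0.000353). The inhibitor thus rose together with the loader it restrains.

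All 6 genes of the Mcm2 to Mcm7 ring rose, with a median log2 fold change of 1.77 and a range of 1.06 to 2.45. Mcm2 had 71.0, 113 and 84.0 CPM in DT and 26.6, 22.1 and 21.2 CPM in saline (log2 fold change 1.94, SE 0.19, adjusted p = 0.000147). Mcm3 had 136, 252 and 224 CPM in DT and 35.9, 38.9 and 41.6 CPM in saline (log2 fold change 2.39, SE 0.22, adjusted p = 8.71e-05). Mcm5, whose promoter held the overlapping pair, had 143, 286 and 267 CPM in DT and 44.1, 42.0 and 41.8 CPM in saline (log2 fold change 2.45, SE 0.24, adjusted p = 0.000115). For these 3 genes even the lowest DT library was far above the highest saline library.

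Mcm4 had 136, 249 and 209 CPM in DT and 89.0, 90.9 and 96.9 CPM in saline (log2 fold change 1.10, SE 0.20, adjusted p = 0.00347). Mcm6, with 3 matches, had 177, 274 and 199.9 CPM in DT and 73.4, 71.2 and 68.1 CPM in saline (log2 fold change 1.61, SE 0.17, adjusted p = 0.000203). Mcm7 had 67.4, 108 and 91.7 CPM in DT and 43.1, 43.9 and 41.5 CPM in saline (log2 fold change 1.06, SE 0.18, adjusted p = 0.00221). The saline libraries of each gene lay close together and the DT libraries were spread and higher. Mcm7 hosts Mir25 and Mir93 on its own strand. On the opposite strand it shares 64 exon bases with Cops6 and 321 with Ap4m1. Cops6 rose, at 261 CPM in DT and 152 CPM in saline (log2 fold change 0.77, adjusted p = 0.0013), and both levels were above those of Mcm7. Ap4m1 (-0.02, adjusted p = 0.96) did not pass. The strand setting of the counting was not given in the sources used here, and the part of shared reads in the Mcm7 rise was not tested.

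Subunit levels can be set beside each other only per length, as the size-factor-adjusted RPKM that the authors deposited. The highest ring subunit was 2.89, 2.82 and 3.11 times the lowest in DT libraries 1, 2 and 3, and 3.21, 3.87 and 4.29 times in saline libraries 1, 2 and 3. Mcm2 was the lowest of the ring subunits in all 6 libraries, while the highest was Mcm6 or Mcm3 in DT and Mcm6 or Mcm4 in saline.

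**Figure D3:**
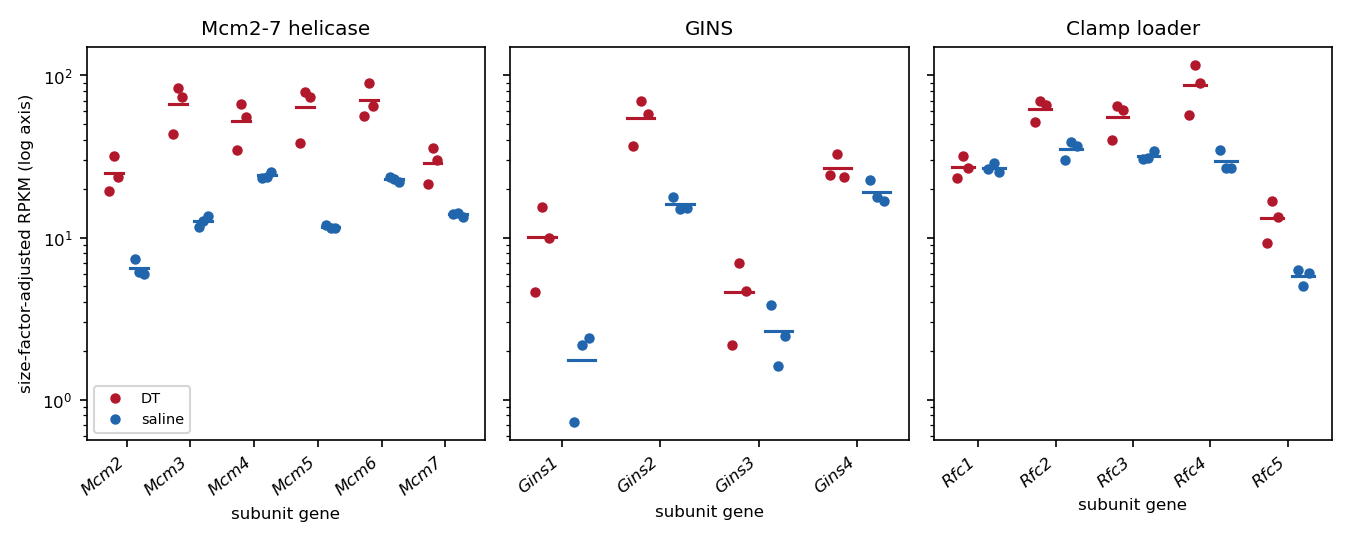
Size-factor-adjusted RPKM (log axis) of each subunit gene of the Mcm ring, GINS and the clamp loader, with points for libraries, lines for the mean of 3, and DT left of saline. DT lies above saline for every ring subunit, while the groups overlap for Gins3 and Rfc1.

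The genes that turn the ring into an active helicase rose in 6 of 8 cases, with a median log2 fold change of 1.85. Mcm10 (Entrez 70024, chromosome 2 from 4990724 to 5012791), which activates the assembled helicase, had 19.5, 32.2 and 34.1 CPM in DT and 1.78, 2.27 and 2.56 CPM in saline (log2 fold change 3.70, SE 0.28, adjusted p = 4.15e-05). It was one of the lowest of the 50 genes per length in saline, at 0.500 RPKM, and no saline library came near a DT library. Cdc45, the CMG partner of the ring, averaged 42.2 ± 12.0 CPM in DT and 11.4 ± 0.439 CPM in saline (log2 fold change 1.88, adjusted p = 0.000406). It shares 209 exon bases with Ufd1 on the opposite strand, which was at 197 CPM in DT and 205 CPM in saline (-0.06, adjusted p = 0.735). Cdc7, the kinase that phosphorylates the ring at firing, averaged 25.3 ± 7.49 CPM in DT and 7.18 ± 2.87 CPM in saline (log2 fold change 1.82, adjusted p = 0.00283). Its activating subunit Dbf4 averaged 11.8 ± 4.19 CPM in DT and 2.79 ± 1.30 CPM in saline (log2 fold change 2.07, adjusted p = 0.00412). Kinase and activator both rose.

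Of the 4 GINS subunits, which form a tetramer, 2 passed. Gins1 had 8.07, 26.1 and 16.9 CPM in DT and 1.24, 3.75 and 4.08 CPM in saline (log2 fold change 2.49, SE 0.50, adjusted p = 0.00533). Gins2 had 41.2, 75.7 and 63.3 CPM in DT and 19.6, 16.6 and 16.8 CPM in saline (log2 fold change 1.76, SE 0.22, adjusted p = 0.000519). Both lay higher in every DT library than in any saline library. Gins3 had 5.67, 17.6 and 12.0 CPM in DT and 9.86, 4.16 and 6.34 CPM in saline (log2 fold change 0.78, SE 0.42, adjusted p = 0.186). Its DT library 1 lay below saline libraries 1 and 3, and without DT library 1 the gene passed (adjusted p = 0.0431). Gins4 had 35.8, 47.0 and 34.2 CPM in DT and 32.8, 26.0 and 24.3 CPM in saline (log2 fold change 0.49, SE 0.19, adjusted p = 0.0749), with groups that did not overlap but nearly touched, and it passed without saline library 1 (adjusted p = 0.0450). Per length, Gins2 was the highest GINS subunit in every DT library and Gins4 in every saline library. Gins2 shares 2758 exon bases with Gse1 on the opposite strand, and Gse1 was at 16.0 CPM in DT and 14.3 CPM in saline (log2 fold change 0.16, adjusted p = 0.614).

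Among polymerase and primase genes 8 of 9 rose, with a median log2 fold change of 1.03. Prim2, the large subunit of the primase, which lays the RNA primers, had 48.5, 89.9 and 72.3 CPM in DT and 26.4, 19.7 and 24.5 CPM in saline (log2 fold change 1.58, SE 0.23, adjusted p = 0.00105). Its DT libraries were all well above its saline libraries, and its catalytic partner Prim1 averaged 105 ± 32.0 CPM in DT and 48.8 ± 4.36 CPM in saline (log2 fold change 1.10, adjusted p = 0.00432). Pola1, the catalytic subunit of polymerase alpha, had 13.6, 33.3 and 29.5 CPM in DT and 12.7, 13.6 and 11.0 CPM in saline (log2 fold change 1.03, SE 0.30, adjusted p = 0.0275). DT library 1 was level with saline library 2, and the Pola1 call was lost when any library but DT library 1 was left out (adjusted p up to 0.138). Pola2, the accessory subunit, averaged 16.5 ± 5.54 CPM in DT and 8.50 ± 1.33 CPM in saline (log2 fold change 0.95, adjusted p = 0.0246). It lost its call without DT library 2 or 3 or saline library 1 or 2 (up to 0.132).

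Polymerase epsilon copies the leading strand and polymerase delta the lagging strand. Pole, the catalytic subunit of epsilon, averaged 18.3 ± 6.70 CPM in DT and 5.65 ± 1.14 CPM in saline (log2 fold change 1.70, adjusted p = 0.00358), and its partner Pole2 42.3 ± 5.28 CPM in DT and 19.8 ± 3.30 CPM in saline (1.09, adjusted p = 0.00221). Pold1, the catalytic subunit of delta, had 35.8, 43.0 and 37.8 CPM in DT and 34.7, 27.5 and 22.1 CPM in saline (log2 fold change 0.47, SE 0.19, adjusted p = 0.0922). It did not pass: the groups were apart only by the gap between DT library 1 and saline library 1, and it passed without saline library 1 (adjusted p = 0.0337). Of the further delta subunits, Pold2 averaged 72.6 ± 11.7 CPM in DT and 51.3 ± 7.49 CPM in saline (log2 fold change 0.50, adjusted p = 0.0463). Pold3 averaged 78.4 ± 6.89 CPM in DT and 51.1 ± 5.67 CPM in saline (log2 fold change 0.62, adjusted p = 0.0106). Pold2 lost its call without DT library 2 or 3 or saline library 2 or 3 (adjusted p up to 0.211), and Pold3 without DT library 2 or 3 or saline library 2 (up to 0.0638). Of the small subunits outside the 50 genes, Pole3 rose (log2 fold change 0.64, adjusted p = 0.0168), and Pole4 (-0.06, adjusted p = 0.849) and Pold4 (-0.21, adjusted p = 0.481) did not pass.

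The sliding clamp and its loader rose in 5 of 6 cases, with a median log2 fold change of 0.99. Pcna, the clamp that holds polymerases on DNA, averaged 23.2 ± 8.90 CPM in DT and 10.2 ± 1.31 CPM in saline (log2 fold change 1.18, adjusted p = 0.0109, or 0.0579 without DT library 2). Pcna has processed copies in the mouse genome and only uniquely aligned reads were counted, so its level may be too low. Rfc4 (Entrez 106344, chromosome 16 from 23113948 to 23127730), a small subunit of the loader, had 75.3, 148 and 115 CPM in DT and 45.0, 34.9 and 34.8 CPM in saline (log2 fold change 1.56, SE 0.23, adjusted p = 0.00124). Rfc1 (Entrez 19687, chromosome 5 from 65261852 to 65338617), the large subunit specific to the replication loader, had 133, 177 and 151 CPM in DT and 150.1, 163 and 142 CPM in saline (log2 fold change 0.02, SE 0.14, adjusted p = 0.94). Rfc4 was higher in every DT library, whereas the Rfc1 values of the groups were interleaved, and the sign of Rfc1 turned with scaling by library size only, with other filters and with some libraries left out, but not with DESeq2 size factors.

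The other small subunits also rose. Rfc2 averaged 100.3 ± 13.1 CPM in DT and 56.8 ± 7.21 CPM in saline (log2 fold change 0.82, adjusted p = 0.00406). Rfc3 averaged 87.3 ± 19.8 CPM in DT and 50.5 ± 2.92 CPM in saline (log2 fold change 0.79, adjusted p = 0.00933). Rfc5 averaged 45.8 ± 12.1 CPM in DT and 20.4 ± 2.30 CPM in saline (log2 fold change 1.17, adjusted p = 0.00351), and its level per length was the lowest of the loader subunits in all 6 libraries. Rfc3 lost its call without DT library 2 or 3 (adjusted p up to 0.0565). The small subunits also serve other loaders. Chtf18 (1.60, adjusted p = 0.00174) and Dscc1 (2.53, adjusted p = 0.00971), of the loader linked to sister chromatid cohesion, rose, while Chtf8 (0.03, adjusted p = 0.944) of the same loader and Atad5 (0.41, adjusted p = 0.361), which removes the clamp, did not pass. Rfc2 shares 952 exon bases with Lat2 on the opposite strand, and Lat2 was at about 2.31 CPM in DT and 2.09 CPM in saline. Rfc5 shares 499 with Wsb2 on the opposite strand, which rose, at 29.5 CPM in DT and 19.0 CPM in saline (log2 fold change 0.63, adjusted p = 0.0415). Rfc4 shares 194 with Eif4a2 on the opposite strand, which fell (-0.69, adjusted p = 0.00912). The part of shared reads in these genes was not tested.

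All 3 genes of Okazaki fragment maturation rose. Fen1, the flap nuclease, had 133, 220.5 and 170.3 CPM in DT and 45.2, 55.6 and 56.2 CPM in saline (log2 fold change 1.74, SE 0.19, adjusted p = 0.000258). Lig1, the ligase that seals the fragments, had 108, 160.1 and 137 CPM in DT and 53.1, 61.4 and 48.3 CPM in saline (log2 fold change 1.32, SE 0.17, adjusted p = 0.000599). For both, the lowest DT library stood well clear of the highest saline library. Dna2, a nuclease for long flaps, had 4.13, 9.20 and 8.26 CPM in DT and 0.0414, 1.34 and 1.22 CPM in saline (log2 fold change 3.06, SE 0.72, adjusted p = 0.0112). Saline library 1 held 1 read of Dna2, the fold change was 2.47 (log2) without that library, and the call was lost without DT library 2 (adjusted p = 0.0515).

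The subunits of RPA, which coats single-stranded DNA, all rose, by the smallest median of the role groups (log2 fold change 0.86). Rpa1 had 259, 329 and 305 CPM in DT and 129, 137 and 149.8 CPM in saline (log2 fold change 1.10, SE 0.14, adjusted p = 0.000453). Rpa3 had 15.8, 30.3 and 22.2 CPM in DT and 14.7, 13.3 and 12.9 CPM in saline (log2 fold change 0.74, SE 0.24, adjusted p = 0.0429). Rpa1 was higher in every DT library by a wide margin, while DT library 1 of Rpa3 was close to saline library 1. The Rpa3 call was lost without any library but DT library 1 (adjusted p up to 0.219). Rpa2 averaged 144 ± 25.2 CPM in DT and 79.2 ± 7.86 CPM in saline (log2 fold change 0.86, adjusted p = 0.00365). Per length Rpa1 and Rpa2 were the highest of the 50 genes in saline, at 41.7 and 41.8 RPKM.

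The 4 fork protection genes rose, with a median log2 fold change of 1.82. Timeless, which with Tipin steadies the fork and links polymerase and helicase, had 26.2, 43.7 and 39.8 CPM in DT and 7.71, 9.16 and 9.68 CPM in saline (log2 fold change 2.05, SE 0.23, adjusted p = 0.000256). Its binding partner Tipin had 74.0, 158 and 131 CPM in DT and 52.1, 47.1 and 61.8 CPM in saline (log2 fold change 1.17, SE 0.25, adjusted p = 0.00673). Both genes were higher in every DT library. Clspn (claspin), the adaptor of the checkpoint kinase Chk1 at the fork, averaged 19.3 ± 8.53 CPM in DT and 2.09 ± 0.857 CPM in saline (log2 fold change 3.20, adjusted p = 0.000766). Wdhd1, which couples polymerase alpha to the helicase, averaged 35.8 ± 11.5 CPM in DT and 11.8 ± 3.79 CPM in saline (1.60, adjusted p = 0.00424).

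Chromatin assembly genes rose in 2 of 3 cases. Asf1b (Entrez 66929, chromosome 8 from 83955694 to 83970195), a chaperone that hands new histones H3 and H4 to the assembly factor CAF-1, had 91.4, 227 and 210.2 CPM in DT and 15.5, 13.2 and 17.3 CPM in saline (log2 fold change 3.52, SE 0.32, adjusted p = 8.18e-05). At 104 RPKM it was the highest of the 50 genes per length in DT, against 9.01 RPKM in saline. Chaf1b, the middle subunit of CAF-1, had 49.7, 112 and 97.7 CPM in DT and 11.9, 13.6 and 14.6 CPM in saline (log2 fold change 2.69, SE 0.28, adjusted p = 0.000174). Chaf1a, the large subunit that binds the clamp, had 8.82, 13.6 and 16.4 CPM in DT and 9.90, 7.17 and 6.95 CPM in saline (log2 fold change 0.69, SE 0.28, adjusted p = 0.0867). DT library 1 of Chaf1a lay below saline library 1, and the gene passed without DT library 1 (adjusted p = 0.0249). Chaf1a shares 4648 exon bases with Ubxn6 on the opposite strand, and Ubxn6 averaged 52.6 CPM in DT and 58.0 CPM in saline, above Chaf1a itself. The chaperone paralog Asf1a (0.35, adjusted p = 0.466) did not pass, and Rbbp4, the small CAF-1 subunit that also serves other complexes, rose slightly (0.43, adjusted p = 0.0273).

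Dtl encodes the CRL4 ligase adaptor that marks Cdt1 for destruction on the clamp. It had 26.2, 56.7 and 41.5 CPM in DT and 0.870, 2.73 and 5.86 CPM in saline (log2 fold change 3.72, SE 0.54, adjusted p = 0.00112), the highest fitted fold change of the 50 genes. The saline libraries differed among themselves, and without saline library 3 the log2 fold change was 4.53. Mcm8, which acts with Mcm9 in recombination repair rather than in the ring, had 8.11, 18.3 and 16.9 CPM in DT and 10.3, 9.34 and 7.16 CPM in saline (log2 fold change 0.69, SE 0.31, adjusted p = 0.121). DT library 1 lay below saline libraries 1 and 2, and Mcm8 passed without DT library 1 (adjusted p = 0.0137). Its partner Mcm9 did not pass (-0.31, adjusted p = 0.502).

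**Figure D4:**
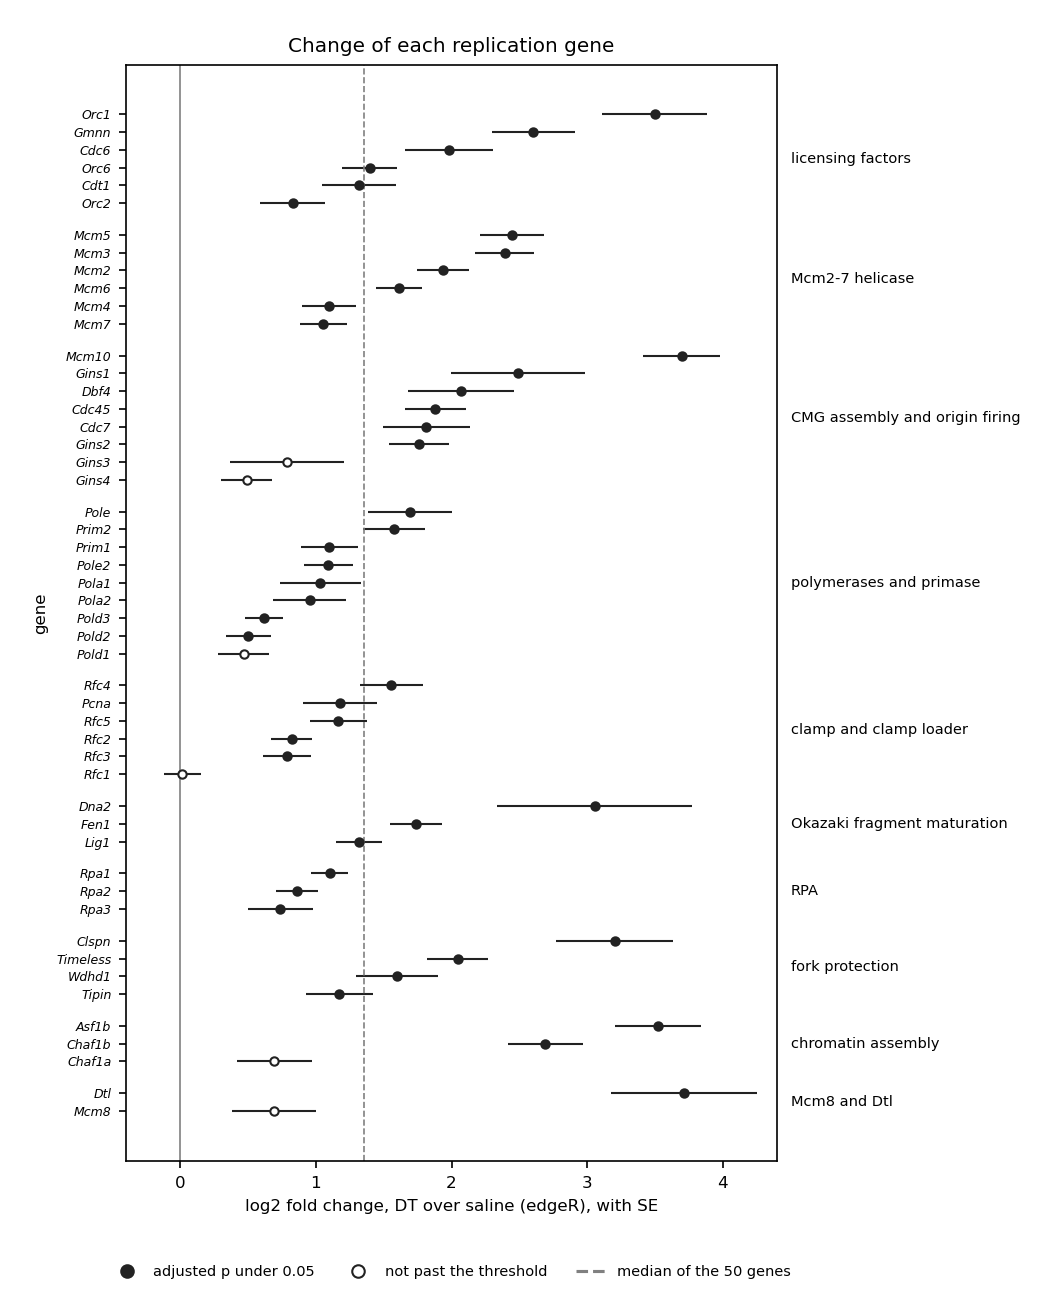
Log2 fold change of each gene (DT over saline, horizontal axis) with its SE, with genes grouped by role down the page, filled points for an adjusted p under 0.05 and open points for the 6 that did not pass. The dashed line marks the median of the 50 genes, 1.36, and values run from 0.02 for Rfc1 to 3.72 for Dtl.

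By role, the median log2 fold change was highest for chromatin assembly (2.69, 3 genes). The helicase activators (1.85), fork protection (1.82), the ring (1.77), fragment maturation (1.74) and licensing (1.69) followed. The median was lower for polymerases (1.03), clamp and loader (0.99) and RPA (0.86). Mcm8 and Dtl, listed together without a common role, had a median of 2.20, between 0.69 (Mcm8, which did not pass) and 3.72 (Dtl). The groups hold 2 to 9 genes and their differences were not tested. Within chromatin assembly the values ran from 0.69 (Chaf1a, which did not pass) to 3.52 (Asf1b). Its rank holds for the 3 listed genes only. The chaperones Nasp (1.33) and Asf1a (0.35) and the CAF-1 subunit Rbbp4 (0.43), outside the 50 genes, all had log2 fold changes below that median. Some genes with a low level per length in saline were among those with the highest fold changes. Dna2 (0.180 RPKM), Clspn (0.334), Orc1 (0.443) and Mcm10 (0.500) were the lowest of the 50, and all 4 rose by more than 8-fold. Without saline library 1 Dna2 fell short of that (log2 fold change 2.47). Next in saline came Pole (0.647 RPKM), which rose 3.24-fold, and Dtl (0.701 RPKM), which rose 13.1-fold. Asf1b rose 11.5-fold from 9.01 RPKM. The saline level is also the denominator of the fold change.

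Partners within one complex or pathway were set against each other as ratios of RPKM within a library. The 8 pairs were picked after the values were seen, so the ratios are read as a description only. An exact 2-sided permutation test of the mean log2 ratio gave p = 0.1 for every pair but Gmnn over Cdt1 (p = 0.2). With 3 libraries a group that test cannot give a p below 0.1, so no pair could pass. Chaf1b over Chaf1a was 9.16, 13.4 and 9.65 in DT libraries 1, 2 and 3 and 1.96, 3.08 and 3.41 in saline libraries 1, 2 and 3. Orc1 over Orc2 was 0.424, 0.431 and 0.564 in DT and 0.0903, 0.0411 and 0.0897 in saline. In both pairs every DT ratio was above every saline ratio. Mcm5 over Mcm7 was 1.79, 2.22 and 2.45 in DT and 0.860, 0.803 and 0.846 in saline, so the order of these subunits was turned round. Gins2 over Gins4 was likewise above 1 in DT, at 1.51, 2.12 and 2.43, and below 1 in saline, at 0.785, 0.839 and 0.910. The other pairs without overlap were Rfc4 over Rfc1 (mean log2 ratio 1.63 in DT and 0.13 in saline), Pole over Pold1 (-2.42 in DT and -3.57 in saline) and Gins1 over Gins4 (-1.58 in DT and -3.60 in saline). For Gmnn over Cdt1 (2.22 in DT and 1.03 in saline) the groups overlapped. Chaf1a, Orc2, Gins2, Mcm7 and Rfc4 share exon bases with the opposite-strand genes named above. With the strand setting of the counting unknown, the part of shared reads in these ratios was not tested.

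**Figure D5:**
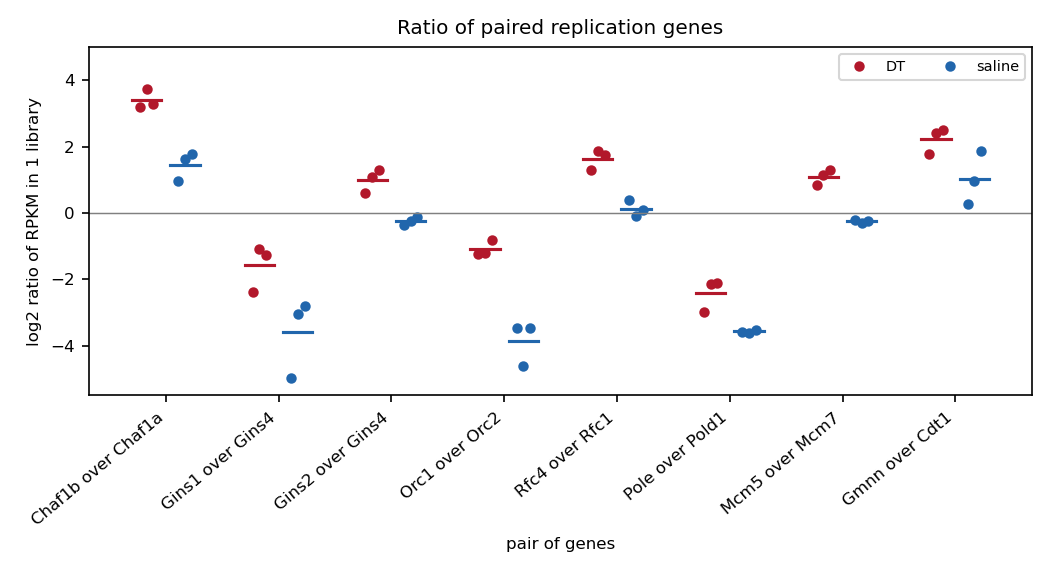
Log2 ratio of the RPKM of both genes of a pair within 1 library (vertical axis), with points for libraries, lines for the mean of 3, and DT left of saline. For 7 of the 8 pairs, which were picked after the values were seen, the DT points lie above all saline points. Those of Gmnn over Cdt1 overlap.

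The list of other pathway genes had smaller values. Of 30 further replication genes 12 rose and 0 fell, where 17.2% of all genes tested rose and 11.9% fell. The median log2 fold change of the 30 was 0.40. The 4 with the smallest p were Top2a, the topoisomerase that untangles sister DNA (3.34, adjusted p = 4.28e-05), Exo1, an exonuclease (2.69, adjusted p = 0.000816), the histone chaperone Nasp (1.33, adjusted p = 0.001) and Chtf18, given above. Ticrr, Mtbp and Recql4, which act in origin firing, rose, as did Orc4, Pole3, Dscc1, Rnaseh2b and Rbbp4. The 18 that did not pass were Orc3, Orc5, Mcm9, Mcmbp, Topbp1, Donson, Rif1, Pold4, Pole4, Chtf8, Atad5, Rnaseh2a, Rnaseh2c, Top1, Asf1a, Supt16, Ssrp1 and Rbbp7, with log2 fold changes of -0.31 to 0.54.

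All 15 mitosis genes rose, where 17.2% of all genes tested did so. Their median log2 fold change was 3.63, which is 12.4-fold, against 2.56-fold for the 50 replication genes. Per length, the median DT level was nearly the same, at 21.8 RPKM for the mitosis genes and 22.0 RPKM for the replication genes. The median saline level was 1.82 RPKM for the mitosis genes and 7.03 RPKM for the replication genes, so the lists differed mainly in saline. Relative to the saline mean the mitosis median (log2) was 2.90, 3.87 and 3.83 in DT libraries 1, 2 and 3, so DT library 1 was the lowest DT library there too. DT library 2 was the highest DT library for only 6 of the 15 mitosis genes. The difference between the lists was not tested.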

How the data were processed

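Polyadenylated RNA of 6 sorted samples was sequenced. RNA was extracted with a Qiagen RNeasy Micro kit with DNase treatment, per the labels' protocols. GSNAP alignment to GRCm38 is recorded per the submitters' processing notes. Versions, gene models and strand were not given in the sources used here. The deposited count of a gene is its number of uniquely aligned reads, and the authors also deposited an RPKM adjusted by a library size factor, per the file headers. That RPKM is the count of a gene scaled by a factor of the gene and a factor of the library. Names and coordinates came from RefSeq GRCm38.p6, which names 31049 of 36528 identifiers.

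The counts went into edgeR 4.0.16 (R 4.3.3) after filterByExpr (minimum count 10, minimum total 15), with TMM scaling, a robust quasi-likelihood fit without covariates and Benjamini-Hochberg adjustment at 0.05. The SE is the absolute log2 fold change over the square root of F. The biological coefficient of variation was 0.233, with 4 residual degrees of freedom. The test was tried on simulated data. Alternatives used DESeq2 1.42.0, limma 3.58.1, other scalings and filters, blocks by sample identifier and each library left out, and limma on log2(RPKM + 1) was added after the data were seen.

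The genes given library by library were, in each role group, that with the smallest p, that with the smallest change and those that did not pass, and all of Mcm2 to Mcm7 and Gins1 to Gins4. Pola1, Chaf1b and Dna2 were added after their values were seen. The members and lists were chosen with earlier results of these data known. Exon overlaps were taken from GENCODE vM21, in which 17 members share exon bases with another gene, 12 of them with a protein-coding one. A list of genes for nucleotide supply is not reported here.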

Additional observations from a re-analysis of the deposited data

How the results depend on the processing

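Under 16 alternatives, 31 of the 44 members that rose were called in every one and 0 changed sign. The number of members that rose was 31 to 47, and 0 fell in any. Their median log2 fold change was 1.10 to 1.51. Leaving out each library in turn gave 35 to 47 members, 4 to 8 polymerase and primase genes, 3 to 5 clamp and loader genes and 1 to 2 of Mcm8 and Dtl. Over all genes it gave 1564 to 2826 higher and 996 to 2045 lower. The submitters' sample identifiers form a larger and a smaller number series. Within the larger, with 2 libraries a group, 31 members rose, 3 of them polymerase and primase genes and 2 clamp and loader genes, and 1097 genes in all were higher and 473 lower. Its median member difference was 1.30, and that of the smaller series, with 1 library a group and no test, was 1.40.

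Rfc1 had a log2 fold change of -0.080 with scaling by library size only, -0.0080 without a filter, -0.0042 with a filter on a mean count of 10, -0.014 within the larger series and -0.12 to 0.10 with 1 library left out. Scaling by library size only moved the median of all genes to -0.11 and gave 2099 higher and 2316 lower, against 2600 and 1795. Pold2 (adjusted p = 0.110) and Rpa3 (0.0762) then did not pass, and Dna2 did not pass without a filter (0.0594). The labels give no replicate numbers. A block by identifier pair gave 46 members, with Gins3 (adjusted p = 0.0410) and Gins4 (0.0349) added, and a block by number series gave 42, but the correlations of libraries with adjoining identifiers were 0.0159, 0.0132 and 0.165, so adjoining identifiers were not taken as pairs.

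Groups of 3 libraries were too small for a check of outlying libraries. Depth limited Dna2 most, with 1 read in saline library 1, and the next lowest count of any member was 18, for Orc1 in saline library 2. The sources used here give neither strand of counting nor dose and time of DT, and the labels list no DT group without the receptor.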
